A study of Mus musculus with 30 samples.

Results

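Imprinted genes, which are transcribed mainly from the chromosome of 1 parent, were examined in single mouse blastocysts grown in culture. The set was a list of 46 genes, and each was read from the transcript cluster (the group of array probes summarised together) that carried its symbol alone and had the highest mean over all 30 arrays. Of the 46 genes, 39 could be measured in this way, out of 30142 genes on the arrays. Another 5 (H19, Snrpn, Meg3, Rian and Mirg) stood on clusters that list several genes, and 2 (Slc22a3 and Zrsr1) had no cluster named for them, so these 7 have no values here. Tests covered the 18091 genes in the upper 60% by mean signal, and 31 of the 46 listed genes were among them. These 31 comprised 13 maternally expressed genes of 19 listed, 15 paternally expressed genes of 24 listed, and the 3 genes whose imprinting depends on the transcript, Gnas, Blcap and Inpp5f.

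Each blastocyst came from a zygote of a B6C3F1 x CD1 mating and spent its first cell cycle in KSOM(aa), a medium for mouse embryos that contains amino acids. In 10 embryos the blastomeres of the 2-cell stage were then parted, and 1 was grown alone in GM501 and the other alone in SAGE 1-Step, both made for human assisted reproduction. These 10 pairs of monozygotic twins were compared with 10 embryos that were never divided and stayed in KSOM(aa). Lysis followed 96 h of culture, at 4 days post coitum, when a twin held about 40 to 50 cells and a control about 80. Medium, bisection and cell number thus all set the controls apart from the twins, and the 3 cannot be told apart. Each array measured the RNA of 1 whole blastocyst, so fewer cells of a type and less RNA per cell cannot be told apart either. The number of matings and culture days behind the embryos is not in the labels, so p-values measure only the spread between these embryos. The arrays read total transcript and not the parental allele, and loss of imprinting was not measured. The parental classes used below come from textbook knowledge. Whether each gene is expressed from 1 allele at this stage was not measured either.

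Most imprinted genes owe their monoallelic expression to DNA methylation that egg or sperm places on a control region and that survives the wave of demethylation before implantation. A smaller group, active from the paternal chromosome mainly in extraembryonic cells, is silenced on the maternal one by the histone mark H3K27me3 inherited from the oocyte. Many imprinted genes act in growth or in the placenta, and mouse embryo culture is known to disturb some of them.

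Promoters of paternally expressed genes with a maternally methylated control region are shown for that reason, with the hexamer TGCCGC, the core of the sequence bound by ZFP57, a zinc finger protein that protects methylation at control regions. The windows are RefSeq sequences of GRCm38.p6 running from 250 bases before to 50 bases after an annotated start, and capitals mark the hexamer on either strand, read as GCGGCA on the opposite one. Mest, a hydrolase-like membrane protein gene on the plus strand, held 2 copies at chr6:30737800-30738099. The window of Kcnq1ot1, whose noncoding RNA silences its neighbours in cis, lies on the minus strand at chr7:143296498-143296797 and held 0.
Mest: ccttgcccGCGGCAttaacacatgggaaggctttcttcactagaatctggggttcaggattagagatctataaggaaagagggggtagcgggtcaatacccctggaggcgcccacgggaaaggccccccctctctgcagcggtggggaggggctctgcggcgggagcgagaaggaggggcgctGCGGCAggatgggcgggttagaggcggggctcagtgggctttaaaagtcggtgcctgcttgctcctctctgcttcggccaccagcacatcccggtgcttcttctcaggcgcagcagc
Kcnq1ot1: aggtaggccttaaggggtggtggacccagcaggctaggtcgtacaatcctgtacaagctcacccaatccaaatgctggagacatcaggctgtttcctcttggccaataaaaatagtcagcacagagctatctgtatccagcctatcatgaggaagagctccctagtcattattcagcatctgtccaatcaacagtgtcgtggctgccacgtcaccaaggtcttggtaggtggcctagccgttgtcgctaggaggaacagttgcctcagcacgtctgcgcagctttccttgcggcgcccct
Such genes were picked by hand, and of the 9 with a listed promoter 5 (55.6%) held the hexamer in at least 1 window. Usp29, paternally expressed and with a window that overlaps that of Peg3, was not among the 9 and held 0. Of the 39 genes of the list with a promoter, 10 (25.6%) held the hexamer. Among all 27025 genes with a listed promoter the share was 13.1%. The hexamer contains the letters CG, which stood a median of 7 times in the windows of all genes, 17 times in that of Mest and 9 times in that of Kcnq1ot1. Some genes also have several windows. The part of CG content or window number in these shares was not tested. No other motif was searched, and a match describes only these letters in these windows.

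Signals were RMA values on a log2 scale, which are relative within a gene, so the levels of different genes are not set against each other. Background was taken from 1083 olfactory receptor genes, which are thought to be mostly silent outside sensory neurons and germ cells. The 95th percentile of their means was 5.17. Of the 39 measured genes, 27 lay above it and 12 at or below it. The 12 were Usp29, Zim1, Asb4, Tfpi2, Nap1l5, Ndn, Magel2, Slc22a18, Dlk1, Plagl1, Nnat and Peg13, with means from 4.01 to 5.06. In single arrays Ndn, a MAGE family gene, was above the receptor genes' 95th percentile on the same array in 3 of 30. Slc22a18, an organic cation transporter gene, was above it in 7, Plagl1 in 2, Zim1 and Nap1l5 in 1 each and the remaining 7 in 0. Of the 12 genes, 4 (Zim1, Asb4, Slc22a18 and Plagl1) were still among the genes tested. Against the 99th percentile of the receptor genes, 6.00, 17 of the 39 genes were near background. Paternally expressed genes made up 8 of the 12, so 14 of 22 paternally and 10 of 14 maternally expressed genes were above background, as were all 3 genes with transcript-dependent imprinting.

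**Figure D1:**
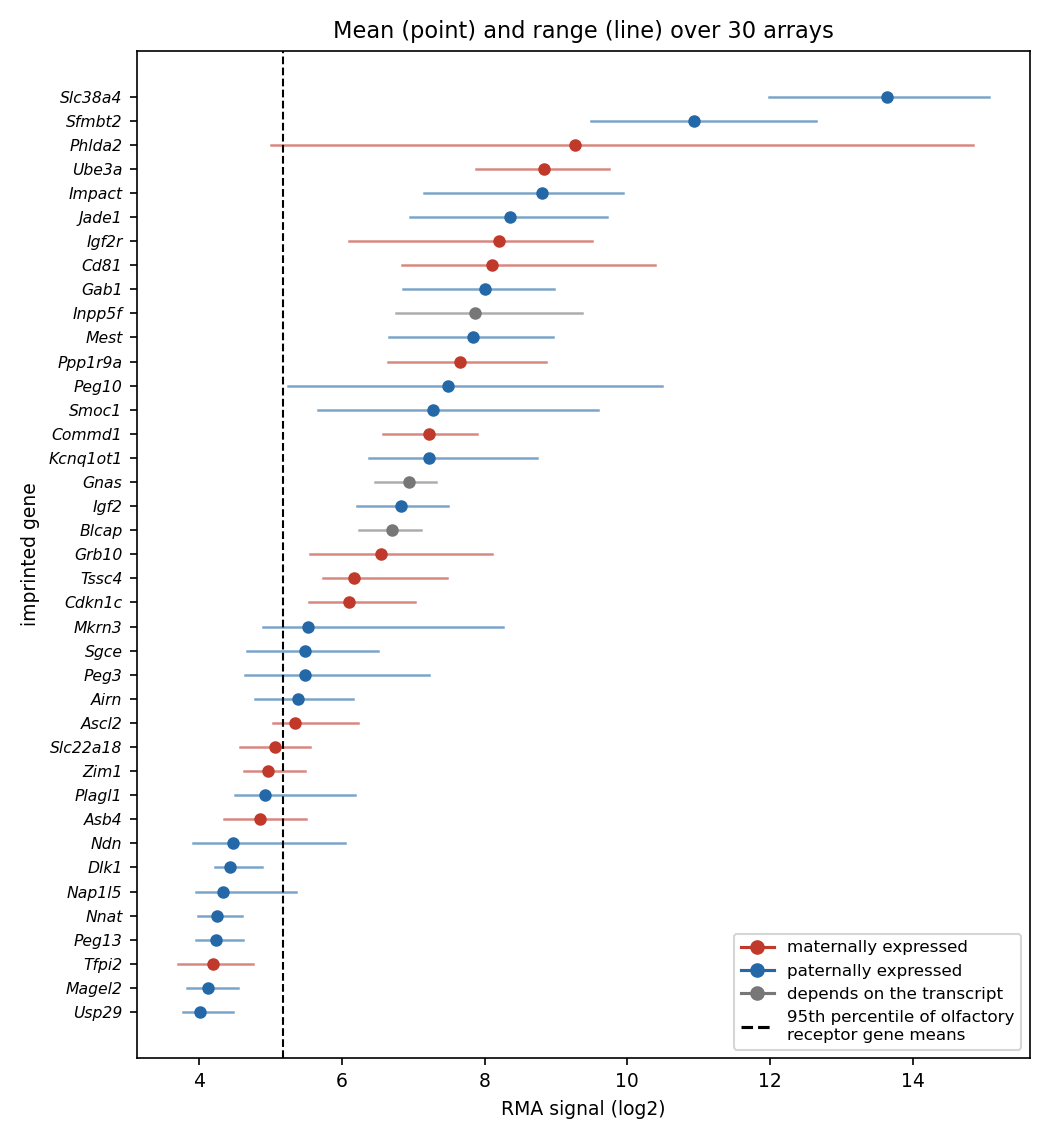
Mean (point) and range (line) of the RMA signal (log2, x axis) over 30 arrays for the 39 measured imprinted genes. Colours give the listed parental class. The dashed line is the 95th percentile of olfactory receptor gene means, 5.17, and 12 genes lie at or below it. Signals of different genes do not order their abundance.

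The arrays themselves were uneven. The median signal of an array was 4.64 ± 0.029 in controls, 4.88 ± 0.24 in GM501 twins and 4.89 ± 0.22 in SAGE twins (SD, n = 10 each). Pairs 1 to 6 lay at 5.01 ± 0.15 (12 arrays) and pairs 7 to 10 at 4.69 ± 0.18 (8 arrays), and 1 array of pair 8, that of its SAGE twin, differed from its set at 5.12. The 2 sets were drawn from these medians and are not groups of the study, and no label names a batch. Olfactory receptor genes moved with the medians, with a median difference from controls of 0.40 in twins of pairs 1 to 6 and 0.07 in twins of pairs 7 to 10. Calls against controls are therefore also given for each set.

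Markers of the 3 blastocyst lineages were present. All 10 trophectoderm markers, 6 of 8 epiblast markers and 6 of 7 measured primitive endoderm markers were above background, with Esrrb, Fgf4 and Sox17 near it. Of 7 measured markers of oocyte, cumulus, oviduct, blood or connective cells, 4 were near background (Zp3, Bmp15, Ovgp1 and Ptprc) and Gdf9, Has2 and Col1a1 were above it.

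Co-twins share a genome, so the media were compared first, within pairs. Between GM501 and SAGE twins none of the 31 imprinted genes passed (limma with the pair as a block, Benjamini-Hochberg adjustment over the genes tested, adjusted p under 0.05). In all genes the share called was 0% as well, with 695 genes and 1 imprinted gene at an unadjusted p under 0.05. The median difference was -0.03 in maternally and -0.06 in paternally expressed genes, against 0.007 in all genes tested.

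Kcnq1ot1 was the imprinted gene with the smallest p. Its signal ran from 6.38 to 8.23 in GM501 twins (median 6.94) and from 6.58 to 8.73 in SAGE twins (median 7.24), so the groups overlapped over most of their range. The GM501 twin was the higher one in 2 of 10 pairs, with a difference of -0.39 ± 0.14 (SE, 10 pairs) and a limma adjusted p of 1. Igf2r, the receptor that clears the growth factor IGF2, was higher in the GM501 twin in 7 of 10 pairs, with a difference of 0.36 ± 0.23. The largest gap between co-twins of Igf2r, 2.49, was that of pair 8. Impact, an inhibitor of the kinase GCN2, differed by -0.35 ± 0.25 and was higher in the GM501 twin in 3 of 10 pairs, and both genes had a limma adjusted p of 1.

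The second comparison asked how twins of each medium differed from undivided embryos. Both comparisons use the same 10 control arrays and are not independent of each other. Slc38a4, an amino acid transporter of placenta and liver, and Igf2r fell in both. Commd1 and Gnas rose in GM501 twins. Jade1, Inpp5f and Tssc4 fell and Airn rose in SAGE twins. In GM501 twins 2 of 31 imprinted genes rose and 2 fell, against 6.81% of all genes tested that rose and 6.97% that fell. In SAGE twins 1 rose and 5 fell, against 7.5% and 8.63%. The counts in GM501 twins are close to these background shares.

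Slc38a4 is paternally expressed and depends on maternal H3K27me3 (chromosome 15, 96994816 to 97055956, GRCm38.p6). Its signal ran from 14.13 to 15.07 in controls (median 14.72), from 12.16 to 14.55 in GM501 twins (median 12.85) and from 11.99 to 14.54 in SAGE twins (median 12.72). In GM501 twins 9 of 10, and in SAGE twins 7 of 10, lay below every control. The difference was -1.57 ± 0.24 (SE, n = 10 and 10, limma adjusted p = 0.00135) for GM501 and -1.57 ± 0.29 (limma adjusted p = 0.00678) for SAGE.

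Igf2r is listed as maternally expressed (chromosome 17, 12682406 to 12769706), and its alleles were not told apart here. Controls lay between 8.93 and 9.50, a range of 0.57. Twins split into separate levels: those of pairs 1 to 6, in either medium, lay between 6.10 and 7.29, and those of pairs 7 to 10 between 9.03 and 9.49 except for the SAGE twin of pair 8, at 7.00. No twin of pairs 1 to 6 reached the controls, and the other 7 twins of pairs 7 to 10 lay inside the control range. The difference over all 10 pairs was -1.41 ± 0.38 in GM501 twins (limma adjusted p = 0.0238) and -1.78 ± 0.39 in SAGE twins (limma adjusted p = 0.0111), means that fall between the levels.

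Airn, a noncoding RNA that runs antisense to Igf2r and can silence it in cis, starts inside Igf2r (chromosome 17, 12741311 to 12859884). Silencing was not measured here. Whether the probes tell the strands apart is not given in the sources used here. Its signal ran from 4.92 to 5.33 in controls (median 5.16), from 5.29 to 5.95 in SAGE twins (median 5.46) and from 4.78 to 6.15 in GM501 twins (median 5.41). In SAGE twins 7 of 10 lay above every control, and the difference was 0.35 ± 0.092 (limma adjusted p = 0.0215). In GM501 twins it was 0.29 ± 0.16 and did not pass (limma adjusted p = 0.187). Airn lay close to background, and olfactory receptor genes had a median difference of 0.27 from controls in both media. The part of that background shift in the rise of Airn was not tested.

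The 12 genes near background mostly lay higher in twins, as the receptor genes did, but by less at the median. The median difference of the 12 from controls was 0.17 in GM501 twins and 0.17 in SAGE twins, against 0.27 in the receptor genes in both. Single genes ran from -0.09 to 0.48 and from -0.06 to 0.28, and 10 and 11 of the 12 were higher. The part of the background shift in these differences was not tested. None of the 4 of these genes that were tested passed in either comparison.

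Jade1 encodes a subunit of HBO1 acetyltransferase complexes and, like Slc38a4, is a paternally expressed gene silenced by maternal H3K27me3. Its signal ran from 8.19 to 9.54 in controls (median 9.12), from 6.95 to 9.40 in SAGE twins (median 7.35) and from 7.06 to 9.71 in GM501 twins (median 7.68). All 12 twins of pairs 1 to 6 and the SAGE twin of pair 8 lay below the lowest control, while the other 7 twins lay between 8.98 and 9.71. Jade1 fell by 1.16 ± 0.31 on the log2 scale in SAGE twins (limma adjusted p = 0.0222). In GM501 twins the difference was -0.86 ± 0.34 and did not pass (limma adjusted p = 0.0786), and without pair 8 it was -1.02 with an adjusted p of 0.0276.

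Inpp5f, an inositol phosphatase gene with an imprinted transcript, ran from 7.08 to 9.36 in controls (median 8.54) and from 6.76 to 8.45 in SAGE twins (median 7.52). Only 3 of 10 SAGE twins lay below every control, so the groups overlapped, and the difference was -0.85 ± 0.28 (limma adjusted p = 0.0446). Without pair 8 this call was lost (adjusted p = 0.0576). In GM501 twins Inpp5f differed by -0.76 ± 0.27 and did not pass (limma adjusted p = 0.0605). Tssc4, which encodes an assembly factor of splicing particles, ran from 5.91 to 6.89 in controls and from 5.82 to 6.11 in SAGE twins and fell by 0.40 ± 0.12 (limma adjusted p = 0.0346). When each array was centred on its median over the genes tested, Tssc4 had a limma adjusted p of 0.0529.

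Commd1, a gene of copper handling that is imprinted in some tissues, ran from 6.64 to 7.16 in controls (median 6.98) and from 6.75 to 7.89 in GM501 twins (median 7.52). In 7 of 10 GM501 twins it lay above every control, and it rose by 0.45 ± 0.13 (limma adjusted p = 0.0349). In SAGE twins, 6 of which lay above every control, the difference of 0.34 ± 0.17 did not pass (limma adjusted p = 0.138). Gnas, the stimulatory G protein alpha subunit, ran from 6.47 to 7.09 in controls and from 6.76 to 7.32 in GM501 twins and rose by 0.31 ± 0.098 (limma adjusted p = 0.0449). The call of Gnas was lost when only the upper 40% of genes were tested (adjusted p = 0.0503) and with trend and robust fitting (adjusted p = 0.057).

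**Figure D2:**
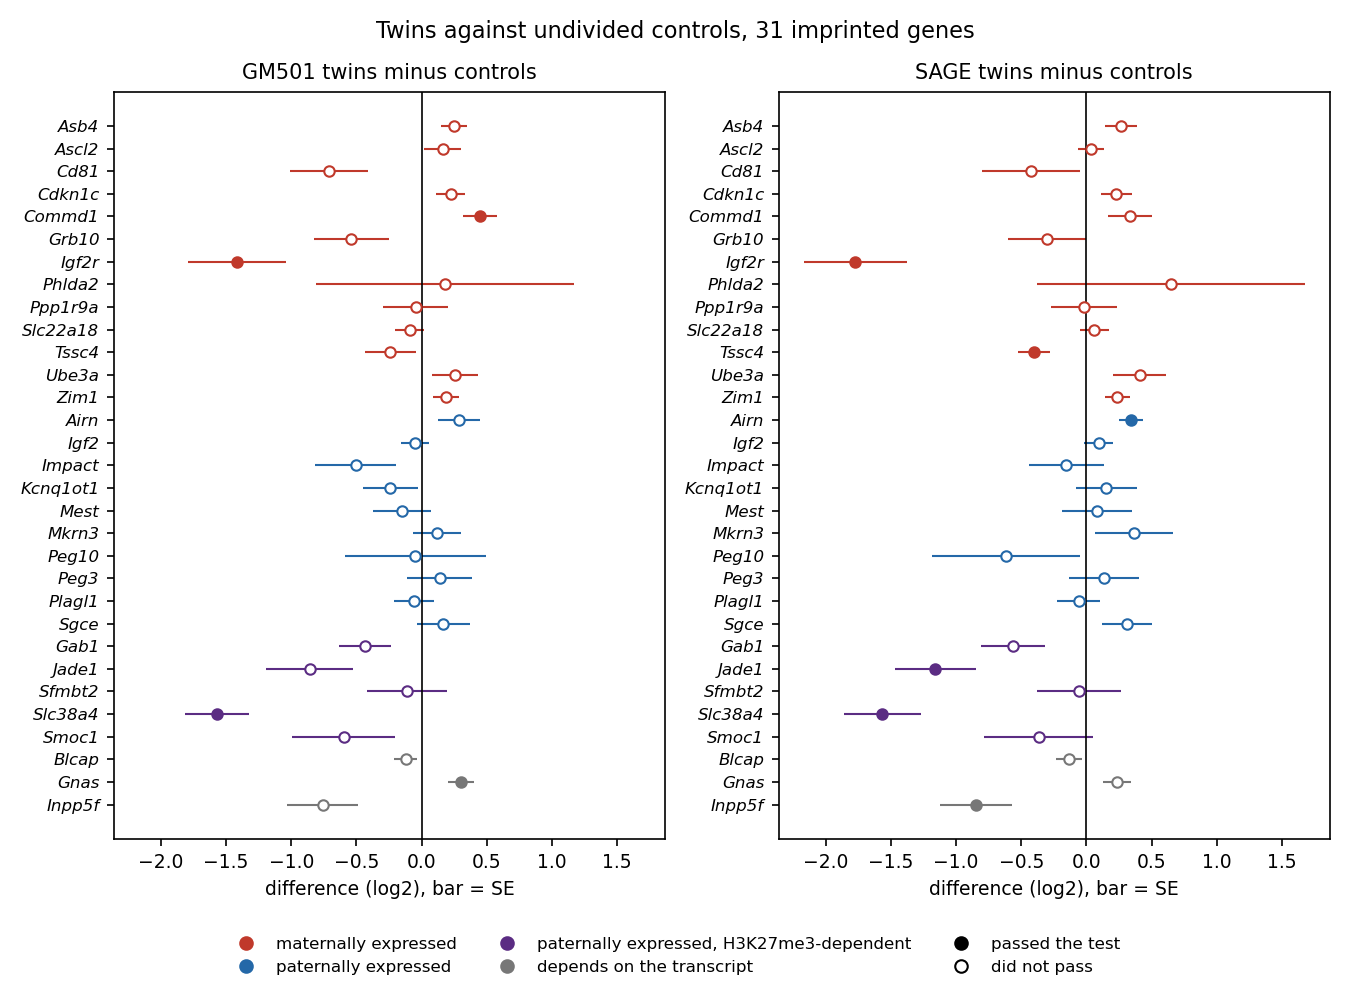
Difference in log2 signal (x axis, bars are SE) between GM501 twins (left) or SAGE twins (right) and controls for the 31 tested imprinted genes, coloured by class, with filled points for genes that passed the test. Slc38a4 at -1.57 and Igf2r are the lowest points in both panels, and the widest bar is that of Phlda2.

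By parental class, the 13 maternally expressed genes had a median difference from controls of 0.16 in GM501 twins, with 1 that rose and 1 that fell, and of 0.06 in SAGE twins, with 2 that fell. The 15 paternally expressed genes had a median of -0.11 in GM501 twins, with 1 that fell, and of -0.06 in SAGE twins, with 1 that rose and 2 that fell. All genes tested had a median of 0.11 in both. The 5 paternally expressed genes that depend on H3K27me3 (Slc38a4, Jade1, Gab1, Smoc1 and Sfmbt2) all had negative differences in both media, with medians of -0.60 and -0.56. The other 10 paternally expressed genes had medians of -0.05 and 0.11.

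The balance of the classes was also read on each array as the mean of the 10 maternally expressed genes above background minus that of the 14 paternally expressed ones. Since probes differ, only its change between groups can be read. It was -0.46 ± 0.33 in controls, -0.35 ± 0.40 in GM501 twins and -0.37 ± 0.38 in SAGE twins (SD, n = 10 each). The groups differed by less than the spread between embryos. In GM501 twins the balance ran from -0.73 to 0.10 in pairs 1 to 6 and from -1.02 to -0.27 in pairs 7 to 10. In SAGE twins it ran from -0.55 to -0.06 and from -1.16 to 0.01, and in controls from -0.94 to 0.04. Most twins of pairs 1 to 6 lay above the control mean and most of pairs 7 to 10 below it. The ranges overlapped, and the mean of each medium averages over these sets. Leaving out genes imprinted in some tissues only, which left 4 maternally expressed genes, gave group means of -0.14 in controls, -0.25 in GM501 twins and -0.23 in SAGE twins.

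Within pairs 1 to 6 alone, 6 imprinted genes rose and 10 fell in GM501 twins and 7 rose and 8 fell in SAGE twins against the 10 controls, where 59.4% and 58.8% of all genes tested were called. In GM501 twins 38.3% of all genes rose and 21.1% fell, and in SAGE twins 38.9% and 19.9%. Within pairs 7 to 10 alone 1 rose in GM501 twins and 0 changed in SAGE twins, where 1.32% and 0.813% were called. Slc38a4 differed by -2.10 and -2.04 in pairs 1 to 6 (limma adjusted p = 2.2e-08 and 7.65e-07) and by -0.78 and -0.85 in pairs 7 to 10 (limma adjusted p = 0.0639 and 0.175). It kept its direction in both sets and both media. Igf2r differed by -2.37 and -2.62 in pairs 1 to 6 (limma adjusted p = 1.09e-09 and 4.18e-09) and by 0.03 in GM501 twins and -0.50 in SAGE twins of pairs 7 to 10 (limma adjusted p = 0.952 and 0.496). No difference between the sets was tested, since the sets were drawn from these arrays.

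Sfmbt2, a polycomb gene of extraembryonic tissue, differed from controls in opposite directions in the sets, with values that overlapped the controls. Controls ran from 10.41 to 11.65 (median 10.94). GM501 twins of pairs 1 to 6 lay between 9.87 and 10.84 and those of pairs 7 to 10 between 11.65 and 12.21. SAGE twins lay between 9.49 and 10.75 in the first set, and pairs 7, 9 and 10 held 12.64, 12.28 and 11.92, with pair 8 at 10.46. The difference over all pairs was -0.11 ± 0.31 in GM501 twins and -0.06 ± 0.32 in SAGE twins. In GM501 twins it fell by 0.80 in pairs 1 to 6 (limma adjusted p = 0.00201) and rose by 0.93 in pairs 7 to 10 (limma adjusted p = 0.0407). In SAGE twins it fell by 0.65 in pairs 1 to 6 (limma adjusted p = 0.0131) and differed by 0.83 in pairs 7 to 10 (limma adjusted p = 0.196). The difference over all 10 pairs averages shifts of opposite sign.

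Gab1, a docking protein of growth factor receptors, fell by 0.77 and 1.04 in GM501 and SAGE twins of pairs 1 to 6 (limma adjusted p = 0.00104 and 0.000215) and differed by 0.07 and 0.15 in pairs 7 to 10. Smoc1, a secreted matrix protein, fell by 1.17 and 1.04 in pairs 1 to 6 (limma adjusted p = 0.00574 and 0.0174) and differed by 0.27 and 0.65 in pairs 7 to 10. Jade1 fell by 1.64 and 1.75 in pairs 1 to 6 (limma adjusted p = 1.64e-06 and 1.2e-06) and differed by 0.32 and -0.28 in pairs 7 to 10. All 5 genes that depend on H3K27me3 were thus called lower in pairs 1 to 6 in both media, where 21.1% and 19.9% of all genes tested were called lower.

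The other genes called over all 10 pairs were read in each set as well. Commd1 rose by 0.66 in GM501 twins of pairs 1 to 6 (limma adjusted p = 5.05e-05) and differed by 0.13 in pairs 7 to 10 (0.735). Gnas rose by 0.30 in GM501 twins of pairs 1 to 6 (limma adjusted p = 0.0331) and differed by 0.32 in pairs 7 to 10 (0.239). In SAGE twins Inpp5f fell by 1.16 in pairs 1 to 6 (limma adjusted p = 0.00394) and differed by -0.37 in pairs 7 to 10 (0.664). Tssc4 fell by 0.42 in SAGE twins of pairs 1 to 6 (limma adjusted p = 0.0215) and differed by -0.37 in pairs 7 to 10 (0.322). Airn rose by 0.33 in SAGE twins of pairs 1 to 6 (limma adjusted p = 0.00317) and differed by 0.37 in pairs 7 to 10 (0.141). In the medium given for each, Gnas, Tssc4 and Airn thus had differences of like size in both sets. Those of Commd1 and Inpp5f were smaller in pairs 7 to 10. The highest SAGE value of Airn, 5.95, was that of pair 8. In GM501 twins Airn was not alike in the sets, with 4.97 to 6.15 in pairs 1 to 6 and 4.78 to 5.24 in pairs 7 to 10. Controls ran from 4.92 to 5.33.

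Several other genes were called in pairs 1 to 6 but not over all 10 pairs. Cdkn1c, a maternally expressed cell cycle inhibitor also called p57, ran from 5.73 to 6.06 in controls, and 7 GM501 and 4 SAGE twins lay above every control. Its difference over all pairs was 0.22 ± 0.11 in GM501 and 0.23 ± 0.12 in SAGE twins (limma adjusted p = 0.148 and 0.156). In pairs 1 to 6 Cdkn1c rose by 0.40 and 0.37 (limma adjusted p = 0.000762 and 0.0205). Olfactory receptor genes had median differences of 0.42 and 0.38 in the same twins. The part of that background shift in the rise of Cdkn1c, whose mean was 6.10, was not tested. In SAGE twins of pairs 1 to 6 Ube3a, a ubiquitin ligase gene, rose by 0.81 (limma adjusted p = 0.000305) and Mest by 0.62 (0.0182). In GM501 twins of that set Impact fell by 0.95 (limma adjusted p = 0.0122), Cd81 by 0.87 (0.0491) and Kcnq1ot1 by 0.49 (0.0414). Zim1 and Asb4, both near background, rose in both media in that set, by 0.34 to 0.40, about as much as the receptor genes.

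Another 5 tested genes were not called against controls in either medium, over all 10 pairs or in either set. Sgce, the epsilon-sarcoglycan gene that shares a promoter region with Peg10, differed by 0.17 ± 0.20 in GM501 twins and by 0.31 ± 0.19 in SAGE twins. Peg3, a paternally expressed zinc finger gene, differed by 0.14 ± 0.25 and 0.13 ± 0.27, and Ascl2, a trophoblast transcription factor gene, by 0.16 ± 0.14 and 0.04 ± 0.098. The differences were -0.04 ± 0.25 and -0.02 ± 0.25 for Ppp1r9a and -0.12 ± 0.086 and -0.14 ± 0.10 for Blcap, the host gene of Nnat.

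**Figure D3:**
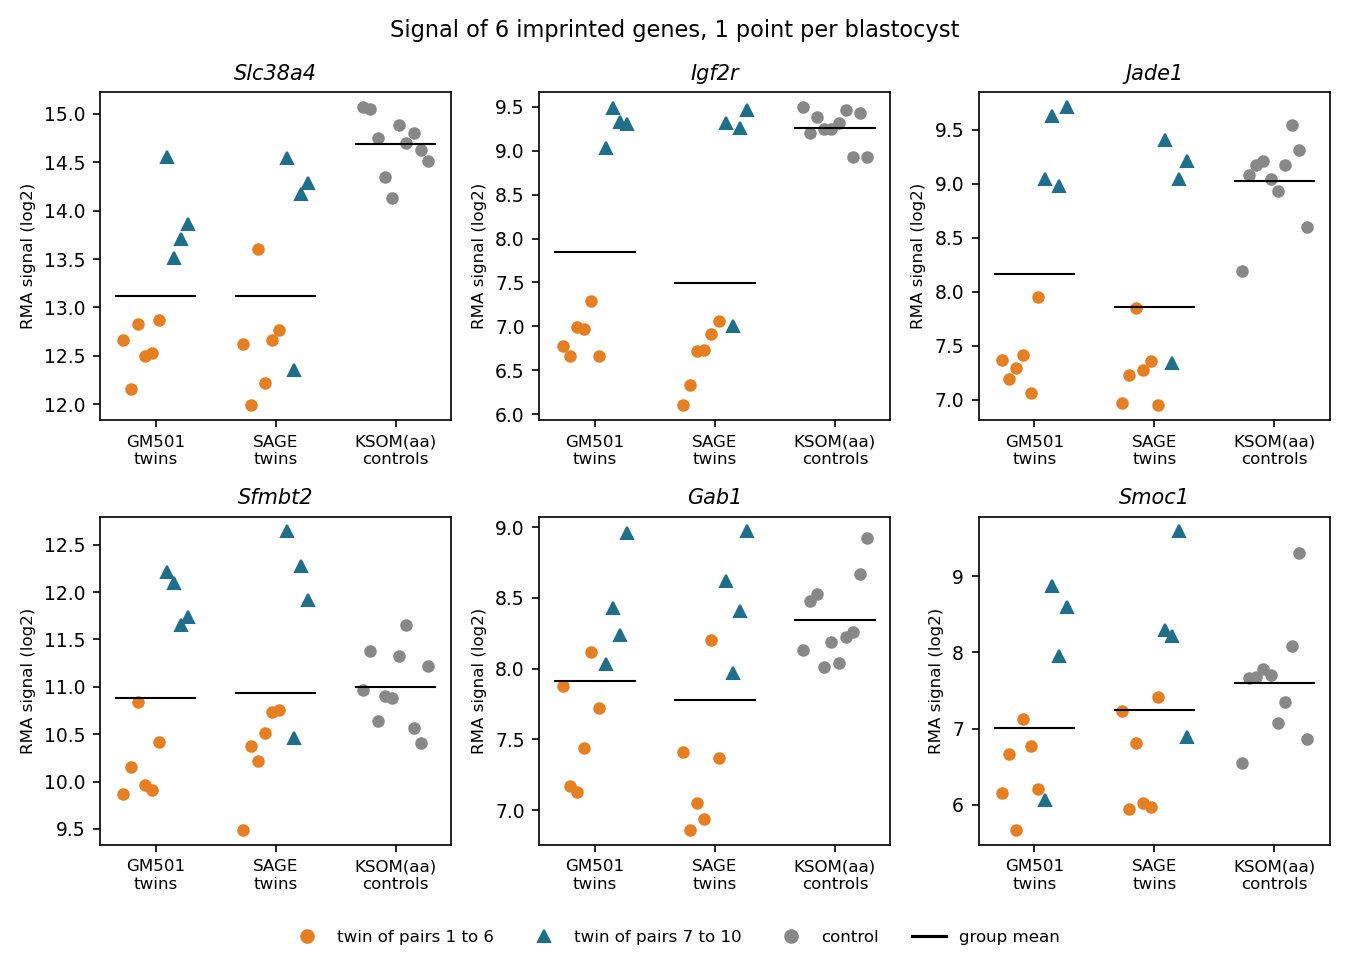
RMA signal (log2, y axis) of 6 imprinted genes in each blastocyst by group, with twins of pairs 1 to 6 as circles, twins of pairs 7 to 10 as triangles, controls in grey and group means as lines. For Igf2r the twins of pairs 1 to 6 lie between 6.10 and 7.29 and controls between 8.93 and 9.50, and for Sfmbt2 the twins of pairs 7 to 10 lie at or above the highest control, 11.65, apart from the SAGE twin of pair 8 at 10.46.

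Lineage markers moved alongside these genes. For comparison, 6.81% of all genes tested rose and 6.97% fell in GM501 twins, and 7.5% and 8.63% in SAGE twins. Trophectoderm markers fell in 8 of 10 genes in GM501 twins and 7 of 10 in SAGE twins, with the smallest p in GM501 for Gata2 (-0.70), Tfap2c (-0.73) and Krt18 (-0.38) and in SAGE for Tead4 (-0.95), Cdx2 (-0.71) and Gata2 (-0.61). The largest falls were those of Fgfr2 in GM501 twins (-1.18) and Krt8 in SAGE twins (-1.11). Their mean level per array ran from 12.01 to 12.45 in controls, from 11.21 to 12.11 in GM501 twins and from 10.60 to 12.27 in SAGE twins. In pairs 1 to 6, 8 of 10 fell in each medium and 1 rose in GM501 twins, and in pairs 7 to 10, 1 fell in GM501 twins and 0 in SAGE twins. Of 8 epiblast markers 1 rose (Klf2, 0.45) and 1 fell (Zfp42, -1.22) in GM501 twins, and 5 fell in SAGE twins, by 1.95 for Tdgf1, 1.58 for Zfp42, 1.54 for Nanog, 1.14 for Pou5f1 and 1.03 for Sox2. Their mean level ran from 7.31 to 9.36, from 7.16 to 8.49 and from 8.50 to 9.37 in GM501 twins, SAGE twins and controls. Of 6 tested primitive endoderm markers 2 fell in each, Lama1 (-2.65) and Sox7 (-0.80) in GM501 twins and Lama1 (-2.61) and Gata4 (-0.48) in SAGE twins, with mean levels from 7.53 to 8.56, from 7.38 to 8.54 and from 7.79 to 8.77. In pairs 1 to 6, 4 epiblast markers fell in GM501 twins and 6 in SAGE twins, 1 rose in each, and 4 primitive endoderm markers fell in each. In pairs 7 to 10, 0 of either list were called. Among all genes tested, 38.3% rose and 21.1% fell in GM501 twins of pairs 1 to 6, and 38.9% and 19.9% in SAGE twins. In pairs 7 to 10, 1.32% and 0.813% were called. The part of these lineage shifts in the values of Slc38a4, Jade1, Gab1 and the other imprinted genes was not tested.

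Of the markers of other cells, 1 of 6 tested rose in each comparison, against 6.81% and 7.5% of all genes tested. It was Gdf9, an oocyte growth factor gene, which rose by 0.43 in GM501 and 0.56 in SAGE twins. The mean level of these markers ran from 4.85 to 5.25 in controls, from 4.89 to 5.67 in GM501 twins and from 5.02 to 5.65 in SAGE twins. In pairs 1 to 6, 3 rose in GM501 and 2 in SAGE twins, against 38.3% and 38.9% of all genes. In pairs 7 to 10, 0 did. The part of these markers' cells in the results was not tested.

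Genes that place or guard imprints were measured as well. Of 19 such factors, all above background, 2 rose and 4 fell in GM501 twins and 0 rose and 5 fell in SAGE twins. Among all genes tested 6.81% rose and 6.97% fell in GM501 twins, and 7.5% and 8.63% in SAGE twins. Dppa3, a maternal protein that shields methylation in the zygote, rose by 1.16 ± 0.27 in GM501 twins (limma adjusted p = 0.015), and Eed, a polycomb subunit that is needed for H3K27me3, rose by 0.57 ± 0.14 (limma adjusted p = 0.015). Smchd1, a chromatin protein of X inactivation and imprinting, fell by 0.85 ± 0.23 in GM501 twins (limma adjusted p = 0.024). In SAGE twins the lowest p values were those of Tet2, an enzyme that oxidises methylcytosine (-0.85 ± 0.17, limma adjusted p = 0.00849), Trim28, the corepressor recruited by ZFP57 (-1.80 ± 0.41, 0.0127), and Smchd1 (-0.75 ± 0.21, 0.024). Tet2 and Trim28 fell in GM501 twins as well (-0.72 and -1.60, limma adjusted p = 0.037 and 0.0432). Differences over all 10 pairs can fall between levels of the sets. Trim28 had a mean of 9.44 in twins of pairs 1 to 6, 12.23 in those of pairs 7 to 10 and 12.26 in controls. For Dppa3 these means were 14.65, 13.38 and 13.22. Within pairs 1 to 6, 2 factors rose and 14 fell in GM501 twins and 2 rose and 13 fell in SAGE twins. There 38.3% of all genes tested rose and 21.1% fell in GM501 twins, and 38.9% and 19.9% in SAGE twins. Within pairs 7 to 10, 1 factor rose in GM501 twins and 0 were called in SAGE twins, where 1.32% and 0.813% of all genes were called.

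Of 23 further imprinted genes outside the list, 12 were tested, with 0 that rose in either medium, 2 that fell in GM501 twins and 3 in SAGE twins. Among all genes tested 6.97% fell in GM501 twins and 8.63% in SAGE twins. Osbpl5, a lipid-binding protein gene, fell by 0.44 ± 0.092 (limma adjusted p = 0.00938) and H13, a signal peptide peptidase gene, by 0.66 ± 0.17 (limma adjusted p = 0.0206) in GM501 twins. H13 also fell in SAGE twins (-0.54 ± 0.14, limma adjusted p = 0.018), as did Cobl (-0.78, 0.0296) and Nap1l4 (-0.78, 0.0384). In pairs 1 to 6, 2 rose and 5 fell in GM501 twins and 1 rose and 5 fell in SAGE twins, and in pairs 7 to 10, 0 were called in either. The shares called of all genes were 59.4% and 58.8% in pairs 1 to 6 and 1.32% and 0.813% in pairs 7 to 10. The counts in pairs 1 to 6 are thus near the share over all genes.

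Co-twin agreement was the third comparison, which asked whether blastocysts from 1 embryo were more alike than blastocysts from different embryos. For this, the mean of each medium was first subtracted from each gene, so a shift shared by all twins of a medium does not enter. Over 31 imprinted genes the mean absolute difference between co-twins was a median of 0.76 times that between unrelated twins of opposite media. Of the 31 ratios 23 were under 1. All genes tested had a median of 0.72, with 84.8% under 1. The median was 0.79 in maternally and 0.71 in paternally expressed genes and 0.50 in the 5 genes that depend on H3K27me3. Those 5 are part of the paternal class, and its other 10 genes had ratios from 0.41 (Plagl1) to 1.22 (Igf2). Ratios were under 1 in 12 of 13 maternally and in 9 of 15 paternally expressed genes, so the lower paternal median does not mean more genes with agreement. By limma's F test over the 10 pairs, 8 of 31 imprinted genes passed, against 26.4% of all genes. They were Gab1, Igf2r, Slc38a4, Sfmbt2, Commd1, Ppp1r9a, Jade1 and Kcnq1ot1, so 4 of the 5 genes that depend on H3K27me3 passed.

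Igf2r had the lowest ratio of the 31 genes, 0.34 (limma F = 10.9, adjusted p = 0.00362). With the means of the media subtracted, its mean absolute difference was 0.49 between co-twins and 1.43 between unrelated twins. Gab1 had 0.29 and 0.79 (limma F = 12.0, adjusted p = 0.00275) and Slc38a4 0.35 and 0.98 (limma F = 10.5, adjusted p = 0.00401). Ppp1r9a, the neurabin gene, had 0.42 and 0.76 (limma adjusted p = 0.0152), and Kcnq1ot1 had 0.37 and 0.62 (0.026). Sfmbt2, Commd1 and Jade1 had ratios of 0.50, 0.46 and 0.53 with limma adjusted p of 0.0113, 0.0137 and 0.0184. Differences between pairs took up 93.1%, 89.9% and 90.6% of the variance of Gab1, Igf2r and Slc38a4 within media. No imprinted gene passed within pairs 1 to 6 or within pairs 7 to 10 alone, by the same test, where 0.243% and 0.0663% of all genes did. Those tests have 6 and 4 pairs. The test over all 10 pairs also takes up the differences between the sets, and agreement within a set was not detectable here for any imprinted gene.

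Co-twins could also lie far apart. In pair 9 Phlda2 was 7.81 in the GM501 twin and 14.85 in the SAGE twin, a gap of 7.04 and the largest of any tested imprinted gene. Mkrn3, a makorin RING finger gene, stood at 5.20 and 8.26 in pair 1, and 8.26 was its highest signal in any embryo. Pair 8 held the largest co-twin gap of Igf2r (2.49), Jade1 (2.29), Sfmbt2 (1.64) and Slc38a4 (1.16), in each of which its SAGE twin stood among pairs 1 to 6. It also held that of Airn (1.17), where its SAGE twin, at 5.95, was the highest of all SAGE twins. The same pair had the largest gap of Asb4 (0.67), Zim1 (0.37) and Plagl1 (0.31), which are near background.

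**Figure D4:**
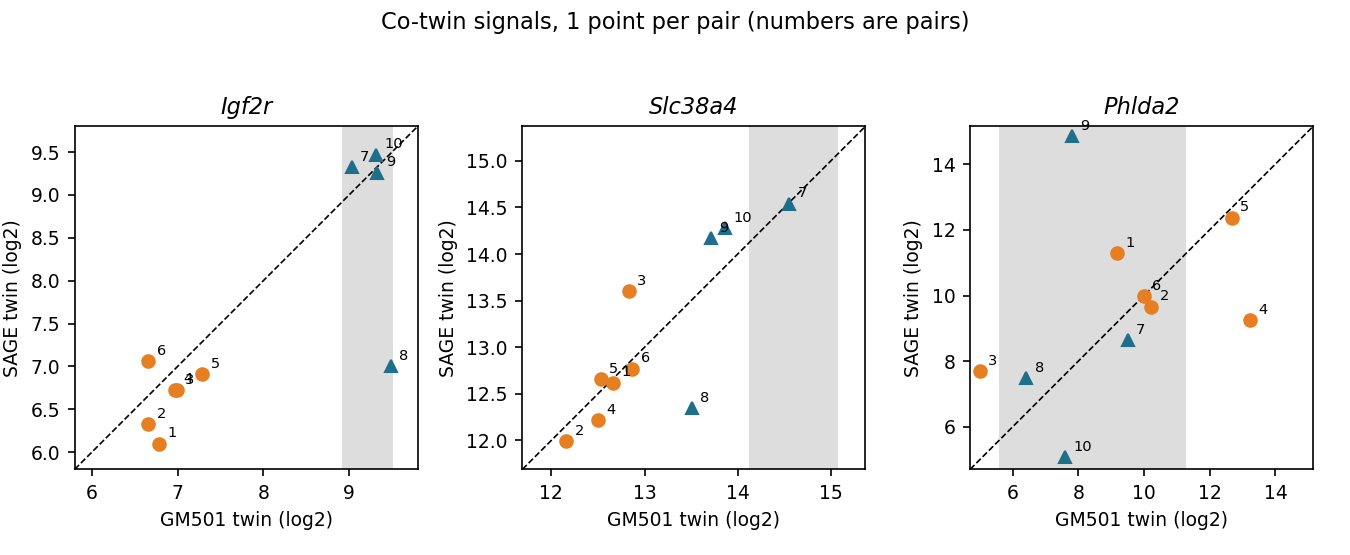
Signal (log2) of the SAGE twin (y axis) against that of the GM501 twin (x axis) for Igf2r, Slc38a4 and Phlda2, 1 point per pair and numbered by pair, with circles for pairs 1 to 6, triangles for pairs 7 to 10, the range of controls shaded along the x axis and a dashed line of equality. Igf2r pairs fall at either end of the line apart from pair 8, while Phlda2 pairs scatter, with pair 9 at 7.81 and 14.85.

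The last comparison was of spread, tested by limma on absolute deviations from the group mean. In GM501 twins 5 of 31 imprinted genes (Igf2r, Airn, Sfmbt2, Slc38a4 and Jade1) were more spread than in controls and 0 less, against 27.1% and 0.321% of all genes. In SAGE twins 7 were more spread (Igf2r, Ube3a, Commd1, Sfmbt2, Gab1, Slc38a4 and Jade1) and 1 less (Tssc4), against 26% and 0.326%. The median ratio of SDs to controls was 1.47 and 1.42 in imprinted genes and 1.78 and 1.83 in all genes tested. Between the media 0 imprinted genes differed in spread, against 0% of all genes, by limma with the pair as a block, and 5 of them and 1154 of all genes had an unadjusted p under 0.05.

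Igf2r had the largest change in spread of these genes, with SDs of 1.26 and 1.32 in GM501 and SAGE twins and 0.20 in controls (difference of mean absolute deviations 1.05 ± 0.11 and 1.02 ± 0.19, limma adjusted p = 1.78e-05 and 0.00142). Jade1 had SDs of 1.06, 0.97 and 0.38 (limma adjusted p = 0.00223 and 0.0178), Sfmbt2 of 0.95, 1.00 and 0.40 (0.00763 and 0.0415) and Slc38a4 of 0.75, 0.94 and 0.30 (0.0179 and 0.00277). Gab1, with 0.57, 0.75 and 0.30, passed in SAGE twins (limma adjusted p = 0.00957), as did Commd1, with 0.38, 0.50 and 0.18 (0.0034). Ube3a, the ubiquitin ligase gene imprinted in neurons, had SDs of 0.59 in SAGE twins and 0.30 in controls (limma adjusted p = 0.0232). Airn passed in GM501 twins with SDs of 0.50 and 0.12 (limma adjusted p = 0.00127).

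Tssc4 was less spread in SAGE twins, with SDs of 0.10 and 0.35 in controls (limma adjusted p = 0.0241). Within pairs 1 to 6 no imprinted gene passed in either medium, where 2.92% and 3.03% of all genes did. Within pairs 7 to 10, 0 passed in GM501 twins, against 0.464% of all genes, and 1 of 31, Igf2r, in SAGE twins, against 6.79% of all genes. Pair 8 is the low value of Igf2r there. For Igf2r the SD over the 12 twins of pairs 1 to 6 was 0.32, against 0.20 in controls, while that over both sets was at least 1.26 in each medium. The 3 imprinted genes with the smallest p between the media were Cd81 (difference -0.43), Airn (0.29) and Slc38a4 (-0.20), with limma adjusted p of 0.668, 0.668 and 0.731.

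Phlda2, which encodes a maternally expressed pleckstrin homology protein that limits placental growth (chromosome 7, 143501545 to 143503145), varied widely in every group, controls included. This gene and the 3 that follow were singled out after their values were seen. Phlda2 ran from 5.62 to 11.25 in controls (median 9.21), from 5.01 to 13.24 in GM501 twins (median 9.34) and from 5.08 to 14.85 in SAGE twins (median 9.46). Its SD of 2.19 in controls was the 13th highest of all 18091 genes tested, and its SDs of 2.58 and 2.75 in GM501 and SAGE twins ranked 17th and 11th.

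In controls no value of Phlda2 lay between 8.21 and 10.21, with 5 embryos above that gap and 5 below it. The group means did not differ beyond this spread, with 0.18 ± 0.99 for GM501 twins (limma adjusted p = 0.902) and 0.65 ± 1.03 for SAGE twins (0.647). Nor did its spread differ detectably from controls (limma adjusted p = 0.964 and 0.932). The sets of pairs did not separate Phlda2, with ranges of 5.01 to 13.24 in pairs 1 to 6 and 5.08 to 14.85 in pairs 7 to 10.

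Peg10, a paternally expressed gene of retrotransposon origin that the placenta needs, ran from 5.50 to 10.49 in controls (median 7.62, SD 1.5, the 77th highest of the genes tested), from 6.19 to 9.33 in GM501 twins (SD 1.07) and from 5.24 to 9.70 in SAGE twins (SD 1.21). Cd81, a tetraspanin gene of the Kcnq1ot1 region, had an SD of 0.86 in controls, and Grb10, an adaptor that restrains insulin signalling, one of 0.78. Of the 31 imprinted genes 8 lay above the 90th percentile of SDs in controls, 0.54. The median SD of imprinted genes in controls was 0.38, against 0.25 for all genes tested. In contrast, Igf2r had an SD of 0.20 in controls and Cdkn1c, the cell cycle inhibitor p57 next to Phlda2, one of 0.11.

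**Figure D5:**
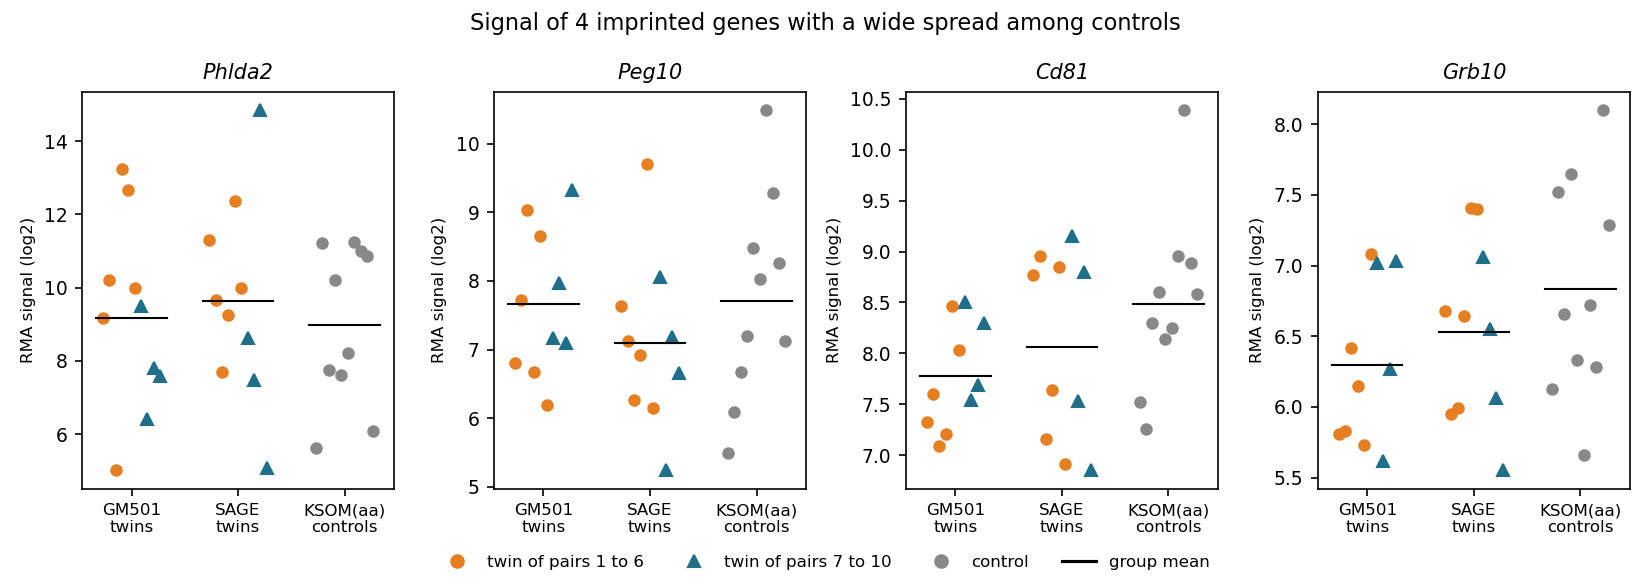
RMA signal (log2, y axis) of Phlda2, Peg10, Cd81 and Grb10 in each blastocyst by group, with twins of pairs 1 to 6 as circles, twins of pairs 7 to 10 as triangles, controls in grey and group means as lines. Phlda2 spans 5.62 to 11.25 in controls and more in twins, and neither set of pairs keeps to 1 side of the controls.

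Igf2, the growth factor that IGF2R removes, was steady by comparison. It ran from 6.54 to 7.10 in controls, from 6.21 to 7.14 in GM501 twins and from 6.56 to 7.49 in SAGE twins, with differences from controls of -0.05 and 0.09. Neither passed, and the co-twin ratio was 1.22. Unlike its receptor, Igf2 did not fall into separate levels, with 6.21 to 7.00 in pairs 1 to 6 and 6.62 to 7.49 in pairs 7 to 10.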

How the data were processed

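The deposited values are log2 signals of 65956 transcript clusters in 30 arrays, 1 per blastocyst. They were made with RMA in Affymetrix Expression Console on build mm10, per the submitters' processing notes, and versions are not given in the sources used here. No label states the log base, and base 2 was inferred from values of 2.2 to 19.3. RMA subtracts background, equalises arrays and summarises probes, so a signal has no unit of molecules. The number of arrays limits the precision.

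Clusters were named from the platform annotation, with 827 symbols updated through gene IDs in the RefSeq table of GRCm38.p6. Clusters of 1 symbol gave 30142 genes, of which the 18091 with a mean of at least 4.8 (the upper 60%) were tested. Symbols without a value here were not analysed further. Parental classes and regions of the members came from textbook knowledge.

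Samples were grouped by their titles. Twin numbers name the embryo of origin. As a check, r between numbered partners, with genes centred within media, ran from 0.163 to 0.696, and in 7 of 10 pairs the GM501 twin's highest r was with its partner. No 2 arrays were identical. Tests used limma 3.58.1 in R 4.3.3, two-sided, with Benjamini-Hochberg adjustment over the 18091 genes and 0.05 as the threshold. The media were compared with the pair as a block, each twin group with controls without a block, the embryo of origin by the moderated F test with medium in the model, and spread on absolute deviations from the group mean scaled for group size. All tests were run on simulated data first. Python 3.11.15 and pandas 2.3.3 served for the rest.

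Members and gene lists were chosen with earlier results of these data known. Members called in any test are described in full, and where none was called the 3 with the smallest p. Promoters of at most 4 members were eligible by the number of hexamers, and 2 are shown. Alternatives were other filters, centring, trend and robust fitting, array weights, another cluster rule, the replicate block, leaving out pair 8, and pairs 1 to 6 or 7 to 10 alone. Pairs 7, 9 and 10 alone were added after the data were seen.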

Additional observations from a re-analysis of the deposited data

Results flagged for a closer look

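Each of the 39 measured genes was checked in each group of 10 arrays for a highest or lowest value far from its neighbour (a gap above Dixon's 95% critical share of the range). Of 117 such checks 11 (9.4%) stood out, and chance alone gives about 1 in 20.

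Mkrn3 had the widest gap, with 8.26 in the SAGE twin of pair 1 against a next value of 5.81. Its co-twin in GM501 was at 5.20. Mkrn3 also reached 6.33 in control 5, with the next control at 5.65.

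Peg3, a paternally expressed zinc finger gene, stood at 7.22 in control 6, and the next control was at 5.73. Tssc4 stood at 7.48 in the GM501 twin of pair 10, with the next at 6.59. Cdkn1c stood at 7.03 in the SAGE twin of pair 2, with the next at 6.48. Ube3a was lowest in control 10 at 7.88, with the next at 8.45. Plagl1, a zinc finger gene near background, stood at 6.18 in control 2, with the next at 5.12.

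The remaining 4 were in genes near background. Asb4 was lowest in control 9 at 4.35, Nap1l5 was highest in the GM501 twin of pair 5 at 5.36 and lowest in the SAGE twin of pair 7 at 3.95, and Ndn was highest in the SAGE twin of pair 10 at 4.85.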

How the results depend on the processing

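The count of 0 imprinted genes between the media, in level or spread, held under every filter, scaling, variance model, array weights, subset of pairs and fit without the replicate block (no replicate block: 0 and 0). Pairs 1 to 6 alone called 16 in GM501 and 15 in SAGE twins against controls, and pairs 7 to 10 alone 1 and 0. Pairs 7, 9 and 10 alone called 0 and 1 (Sfmbt2), where 0.415% and 0.685% of all genes were called. Array weights called 11 and 11 of 31, where 43.7% and 49.1% of all genes were called. For the embryo of origin, pairs 1 to 6 and pairs 7 to 10 called 0 and 0. For spread against controls, pairs 1 to 6 called 0 and 0, pairs 7 to 10 called 0 in GM501 and 1 in SAGE twins, and pairs 7, 9 and 10 called 0 and 0. These subsets hold fewer samples, and any further cause was not tested.

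Among genes called in the main comparisons, differences that changed sign, none of them past the threshold, all came from these subsets. Igf2r differed from controls by 0.025 in GM501 twins of pairs 7 to 10 and by 0.085 in SAGE twins of pairs 7, 9 and 10, where Jade1 differed by 0.193. The spread of GM501 twins against controls turned to -0.011 and -0.003 for Igf2r in pairs 7 to 10 and in pairs 7, 9 and 10, to -0.07, -0.016 and -0.056 for Sfmbt2 in pairs 7 to 10, 1 to 6, and 7, 9 and 10, and to -0.024 for Slc38a4 and -0.064 for Jade1 in pairs 1 to 6. In SAGE twins it turned to -0.091 for Commd1 and -0.04 for Jade1 in pairs 1 to 6 and to -0.016 for Ube3a in pairs 7 to 10. In pairs 7, 9 and 10 it turned to -0.063 for Igf2r, -0.06 for Ube3a, -0.042 for Sfmbt2, -0.01 for Gab1, -0.066 for Slc38a4 and -0.135 for Jade1.

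Numbers of controls name no pair. With the replicate block on those numbers, where 7.59% and 10.6% of all genes were called, 3 genes were called in GM501 twins, where Commd1 (adjusted p = 0.0536) and Gnas (0.107) were lost and Inpp5f (0.0386) was gained, and 4 in SAGE twins, where Tssc4 (0.0518) and Inpp5f (0.0895) were lost. Centring arrays moved every difference from controls by 0.031 in GM501 and 0.046 in SAGE twins. Signals near background limit what can be read for 12 of the 39 genes.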
